A study of Homo sapiens with 34 samples.

Results

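The regions described here are those of the series-level list of Orc6-occupied regions that at least 1 of the 2 Orc6 libraries used here of the same condition did not hold. They were chosen by overlap: a region of the series list was taken when it did not share at least 1 bp with a called region in both libraries of non-treated (NT) cells with the control siRNA siGl3. On chromosomes 1 to 22 and X this held for 3114 of 13557 regions, 23% of the list. Of these members, 930 overlapped neither library, 281 overlapped replicate 1 only and 1903 overlapped replicate 2 only, and the other 10443 regions of the list, called the rest below, overlapped both. The membership therefore follows from those 2 lists, and their values at the members are given as description, with no test. The name of the series list gives siGl3, NT, Orc6 and a number, and matches no single sample. The sources used here do not say from which libraries it was called. The samples not analysed here include libraries of siGl3 NT cells with an Orc6 antibody labelled apart from the one used here.

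The series profiled U2OS cells, a human osteosarcoma line, by CUT&RUN, in which a nuclease tethered to an antibody releases the DNA beside the bound protein. Antibodies were against Orc6, SMARCA1 and OGG1, and 20 libraries with a list of called regions were used, 2 in each of 10 groups, while 14 of the 34 samples were not analysed here. All cells carried an siRNA for 72 h, were held by a double thymidine block and were collected 3 h after release, in early S phase. SMARCA1 and OGG1 were profiled in siGl3 NT cells, siGl3 cells given 5 mM H2O2 for 30 min, siOrc6 (Orc6 knockdown) NT cells and siOrc6 cells given the same H2O2, and Orc6 was profiled in siGl3 NT and siGl3 H2O2 cells. Replicate numbers match the batch numbers of the labels, and the labels do not say whether they mark separate cultures, so p-values measure the spread between these libraries. Called regions give no RNA level, so neither the knockdown nor the identity of the line was checked here.

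Orc6 belongs to the origin recognition complex, a ring of subunits that binds DNA before S phase and, with CDC6 and CDT1, loads the MCM helicase at the places where replication can start. SMARCA1 is an ATPase of the ISWI remodellers, which slide nucleosomes and keep them evenly spaced. OGG1 is the glycosylase that starts base excision repair by removing 8-oxoguanine, the most studied oxidised base of DNA.

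The promoters below show the kind of DNA the members cover. RefSeq promoter windows (GRCh38.p14, 250 bases before to 50 after the gene start, 22132 windows of protein-coding genes) were matched by position, and 1531 lay whole inside a member, 302 of them inside a region missing from both libraries, against 6512 inside the rest. The 4 shown first lie in the regions of highest total signal missing from both that hold a whole window, and the last 2 come from the rest by the same ranking. Regions that share a call and 1 chromosome were left out of that ranking, and the first window by position was taken in each region. Each reads 5′ to 3′ on the gene's strand with every CG dinucleotide in capitals.
EGFL7 (missing from both): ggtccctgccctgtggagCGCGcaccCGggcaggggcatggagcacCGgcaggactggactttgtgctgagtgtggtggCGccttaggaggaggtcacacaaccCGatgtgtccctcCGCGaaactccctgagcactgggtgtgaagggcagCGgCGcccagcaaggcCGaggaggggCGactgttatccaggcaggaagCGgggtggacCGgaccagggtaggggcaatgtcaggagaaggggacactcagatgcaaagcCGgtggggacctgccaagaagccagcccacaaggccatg
ADGRA1 (missing from both): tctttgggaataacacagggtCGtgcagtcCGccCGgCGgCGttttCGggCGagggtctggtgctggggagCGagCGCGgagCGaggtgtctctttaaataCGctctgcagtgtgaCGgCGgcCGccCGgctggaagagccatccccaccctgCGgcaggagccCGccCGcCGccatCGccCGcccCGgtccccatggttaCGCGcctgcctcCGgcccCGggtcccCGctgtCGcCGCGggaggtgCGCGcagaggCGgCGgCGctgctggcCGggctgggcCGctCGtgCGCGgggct
LHX3 (missing from both): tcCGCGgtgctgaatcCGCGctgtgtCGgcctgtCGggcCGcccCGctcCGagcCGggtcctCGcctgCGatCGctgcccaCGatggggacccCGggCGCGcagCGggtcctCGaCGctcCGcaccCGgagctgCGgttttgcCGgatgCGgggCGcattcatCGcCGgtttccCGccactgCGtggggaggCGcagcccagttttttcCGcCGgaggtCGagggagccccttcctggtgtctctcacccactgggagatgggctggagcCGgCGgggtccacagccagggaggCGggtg
INS (missing from both): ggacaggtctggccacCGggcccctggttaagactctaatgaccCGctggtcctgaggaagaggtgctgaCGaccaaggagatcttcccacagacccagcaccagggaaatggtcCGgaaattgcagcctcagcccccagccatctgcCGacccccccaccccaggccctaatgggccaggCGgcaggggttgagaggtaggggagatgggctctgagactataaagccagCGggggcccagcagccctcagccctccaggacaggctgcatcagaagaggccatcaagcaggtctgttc
MICALL2 (rest): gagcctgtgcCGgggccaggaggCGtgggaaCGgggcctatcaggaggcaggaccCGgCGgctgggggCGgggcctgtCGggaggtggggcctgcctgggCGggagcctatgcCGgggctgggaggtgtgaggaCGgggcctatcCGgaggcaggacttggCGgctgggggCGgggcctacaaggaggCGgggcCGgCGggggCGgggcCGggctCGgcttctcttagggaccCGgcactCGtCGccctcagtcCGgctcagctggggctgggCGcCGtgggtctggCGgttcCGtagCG
RTN4R (rest): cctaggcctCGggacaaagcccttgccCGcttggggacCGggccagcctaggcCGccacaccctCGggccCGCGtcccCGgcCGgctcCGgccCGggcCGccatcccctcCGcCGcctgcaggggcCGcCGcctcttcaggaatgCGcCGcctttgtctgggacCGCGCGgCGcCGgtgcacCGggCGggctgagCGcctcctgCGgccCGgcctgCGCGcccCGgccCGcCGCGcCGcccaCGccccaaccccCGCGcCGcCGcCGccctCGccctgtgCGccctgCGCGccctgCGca

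The EGFL7 window is chr9:136658606-136658905 on the plus strand, with 65.7% G+C and 15 CG, and its gene encodes a protein secreted by endothelial cells. The ADGRA1 window, chr10:133087674-133087973 on the plus strand, has 74% G+C and 41 CG and belongs to an adhesion G protein-coupled receptor. LHX3, a homeobox factor of pituitary and motor neuron development, has its window at chr9:136201625-136201924 on the minus strand, with 72.7% G+C and 37 CG. INS, the insulin gene, has its window at chr11:2161160-2161459 on the minus strand, with 63% G+C and 7 CG, and it is the one of these 6 windows that holds TATAAA. The windows of the rest were chr7:1459421-1459720 (MICALL2, minus strand, 76.3% G+C, 28 CG) and chr22:20268269-20268568 (RTN4R, the Nogo receptor, minus strand, 82% G+C, 46 CG). In 4 of the 6 windows (ADGRA1, LHX3, MICALL2 and RTN4R) the sequence GGGCGG, the GC box bound by Sp1-type factors, was found on one of the strands.

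Promoters inside the members were GC-rich, the more so in the regions missing from both and in those of replicate 1 only. The median G+C content was 70.2% over the 302 promoters missing from both, 67.3% over all 1531 promoters inside members, 66.3% in the rest and 62.3% over all 22132 windows. The median number of CG was 31, 28, 27 and 21 in that order. Motifs were searched on both strands. GGGCGG was present in 70.9% of the promoters missing from both, 73.4% of the rest and 56.3% of all. CCAAT, the box bound by NF-Y, was present in 20.2%, 36.4% and 34.6%. The G-quadruplex motif (4 runs of at least 3 G with 1 to 7 bases between them, which can share bases with GGGCGG) was present in 47%, 37.7% and 30.5%. TATAAA was present in 4.97%, 4.96% and 9.46%, and TGANTCA, the AP-1 site, in 3.31%, 4.82% and 6.15%. The 106 promoters of replicate 1 only had a median G+C of 71.7% and 28.5 CG, with GGGCGG in 77.4%, CCAAT in 31.1% and the G-quadruplex motif in 49.1%. Promoters held in replicate 2 only stood near the rest, with 66.3% G+C, CCAAT in 37.5% and the G-quadruplex motif in 33.8%. These are shares of letters in a fixed window, not of bound sites.

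The members lay at the weak end of the series list. Its values are the authors' total and maximum signal of each region, read only within the list, and medians here leave out regions that share a call with another region. Median maximum signal was 26 in the regions missing from both, 30 in those of replicate 1 only, 40 in those of replicate 2 only and 50 in the rest. The quartiles of the regions missing from both (21 to 33) lay wholly below those of the rest (38 to 67). With the list cut into 10 equal steps of maximum signal, 59% of regions in the lowest step (13 to 26) were members and 30.2% were missing from both, and in the highest step (85 to 472) these shares were 7.56% and 0.723%. Total signal separated them less: in its lowest step 46% were members, in its highest step 10.6%. Weak regions of the list were the ones most often absent from a replicate, while 9 regions of the highest step by maximum were absent from both.

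**Figure D1:**
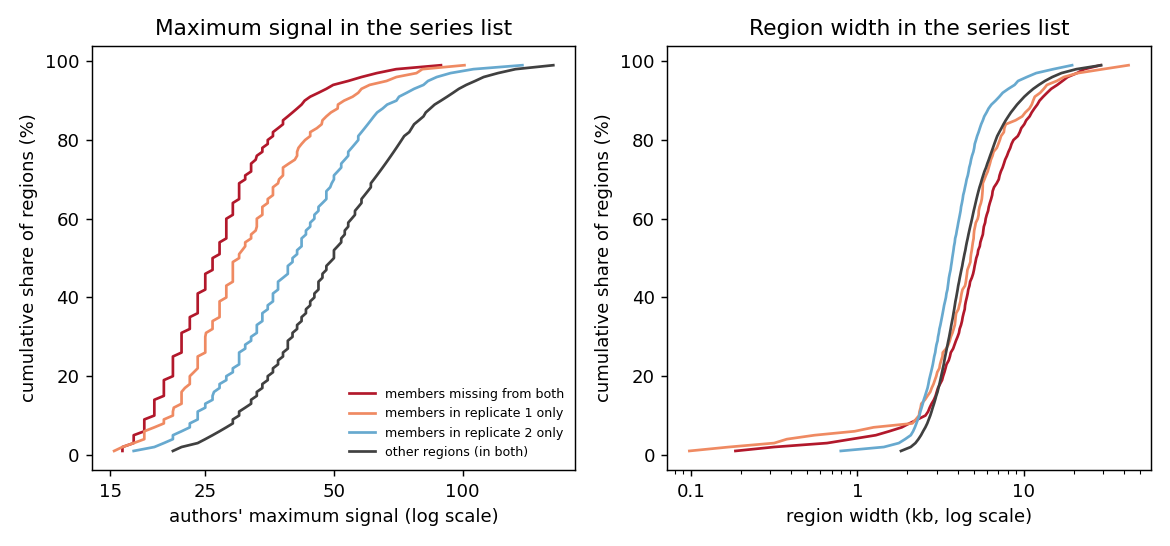
Cumulative share of regions (vertical axis, %) against the authors' maximum signal (left, log scale) and region width in kb (right, log scale), from the 1st to the 99th percentile, for the 3 classes of members and the rest, without regions that share a call. The median maximum rises from 26 (missing from both) through 30 and 40 to 50 (rest), while the median width is largest for the regions missing from both (5180 bp) and smallest for those of replicate 2 only (3715 bp).

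Regions missing from both were also wide, and their median ratio of maximum to mean signal was lower. Their median width was 5180 bp against 4788 bp for replicate 1 only, 3715 bp for replicate 2 only and 4352 bp for the rest. The median ratio of maximum to mean signal was 2.52 for the regions missing from both, 2.73 for replicate 1 only, 2.83 for replicate 2 only and 3.09 for the rest. These medians keep regions whose total exceeds the maximum times the width, where the ratio is below 1 and does not measure shape. With shared calls counted too, such regions were 163 of 930 missing from both and 184 of 10443 of the rest. A part of the list consists of cut calls: 1126 regions carried the same total, maximum and position of maximum as a neighbour, from 539 calls, with holes of 2100 bp (median) between the pieces, and in 479 regions the total was larger than the maximum times the width. Both marks together touched 25.5% of the regions missing from both and 28.1% of those of replicate 1 only, against 8.57% of those of replicate 2 only and 7.98% of the rest. Such a piece keeps the signal of its whole call, so its total says little of the piece itself. In 455 members the position of maximum signal lay outside the region, and for 290 of those it lay in a region of at least 1 NT Orc6 library. Joining the pieces of each call left 2841 members of 12970 calls, 21.9%.

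Most members were not near misses. For the regions missing from both, the nearest called region of either NT Orc6 library was 9204 bp away in the median (quartiles 2891 and 26316 bp), 97 of 930 had one within 1 kb and 65 had none within 100 kb. The regions of replicate 2 only lay 20799 bp (median) from the nearest region of replicate 1, and those of replicate 1 only lay 5150 bp from the nearest region of replicate 2, whose list was longer (63692 against 23375 regions). At the threshold itself, a region at chr22:23681369-23687648 abutted a NT Orc6 region with a gap of 0 bp, and one at TRADD (chr16:67154896-67156687), an adaptor of the TNF receptor, missed by 3 bp. Another in ITGA11, an integrin subunit (chr15:68325876-68328573), missed replicate 1 by 12 bp, and one in NECTIN2, a cell adhesion molecule (chr19:44877062-44881405), missed by 13 bp. Just inside the rest, a region at TBX4, a limb and lung T-box factor (chr17:61482283-61486931), was kept by an overlap of 9 bp, and one of 2 bp width (chr3:130118202-130118203) by those 2 bp.

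Members missing from both were concentrated near chromosome ends. Of the 1753 list regions within 5 Mb of an end (taken as the base 1 of a chromosome or the farthest region end in any list), 444 (25.3%) were missing from both, against 4.12% elsewhere. So 47.7% of the regions missing from both lay there, against 27.4% of those of replicate 1 only, 15% of those of replicate 2 only and 9.06% of the rest, with 7.59% of the genome span in these windows. The share missing from both was higher in the end windows than in the remainder of the chromosome on 21 of 23 chromosomes, the exceptions being chromosomes 15 and 18, where no region of the end windows was missing from both. That count takes both ends of a chromosome together, and single ends differed. None of the 16 list regions in the last 5 Mb of chromosome 1 was missing from both. The same held for the 8 in the first 5 Mb of chromosome 9 and the 34 in the last 5 Mb of chromosome 19. Over all ends the share stood at 24.3% in the outermost Mb, was highest at 33.3% between 1 and 2 Mb and fell to 14.4% between 4 and 5 Mb, and to 3.05% between 10 and 15 Mb. These are counts over regions, which are not replicates, and no test was made of them.

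**Figure D2:**
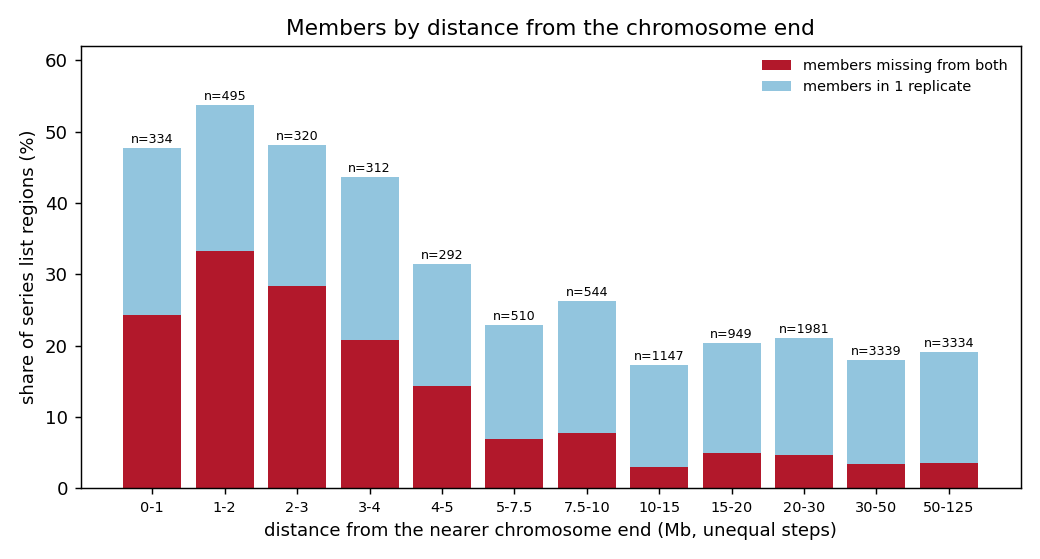
Share of series list regions (vertical axis, %) that are members missing from both (red) or held in 1 replicate (blue), by distance from the nearer chromosome end in Mb (unequal steps; n is the number of list regions). The red share stands between 14.4% and 33.3% within 5 Mb of an end and between 3.05% and 7.72% farther in, while the blue share stays between 14.3% and 23.4%.

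The short arm of chromosome 1 showed this best. In its first 5 Mb, 42 of 54 list regions were missing from both and 49 were members. The region of highest total signal missing from both lay there, at chr1:3493019-3570755 inside MEGF6, a gene for a multiple EGF-domain protein, with a width of 77737 bp and the nearest NT Orc6 region 328949 bp away. Both pieces of 1 call at TP73, a transcription factor gene (chr1:3673531-3693760 and chr1:3694818-3732087), and a region in SKI, a proto-oncogene that represses TGF-beta signalling (chr1:2299331-2305064), lay there as well. The last 5 Mb of chromosome 9 held 77 regions missing from both among 138, among them those with the EGFL7 and LHX3 promoters. The first 5 Mb of chromosome 11 held 31 of 45, with INS and MUC5AC, a secreted airway mucin (chr11:1195546-1201259). The last 5 Mb of chromosome 10 held 18 of 24, with ADGRA1, and the first 5 Mb of chromosome 4 held 20 of 32. By contrast, 12 of 141 regions in the first 5 Mb of chromosome 7 were missing from both.

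The libraries differed in how much they called in these windows at all. In the first 5 Mb of chromosome 1, NT Orc6 replicates 1 and 2 held 7 and 20 regions, the Orc6 H2O2 libraries 41 and 5, and SMARCA1 siGl3 libraries 0, 0, 13 and 16 (NT, then H2O2). The OGG1 NT libraries held 75 and 76 with siGl3 and 69 and 6 with siOrc6, and SMARCA1 siOrc6 libraries held 30 and 30 (NT) and 162 and 245 (H2O2). As a share of each list, regions within 5 Mb of an end made up 7.94% and 6.57% for NT Orc6, 12.9% for the series list, 11.9% and 13.6% for SMARCA1 siOrc6 NT, 14.4%, 14% and 13.8% for 3 of the 4 OGG1 NT libraries and 7.19% for the other, OGG1 siOrc6 NT replicate 2. The SMARCA1 siOrc6 H2O2 lists had 16.5% and 14.4%, and the other lists lay between 4.42% and 9.71%. By this share alone the series list stood nearer to the SMARCA1 siOrc6 lists and those 3 OGG1 lists than to the NT Orc6 lists. Of its 13557 regions, 10443 overlapped both NT Orc6 lists. NT Orc6 replicate 1 overlapped 281 members and 10443 regions of the rest, and replicate 2 overlapped 1903 and 10443. For SMARCA1 siOrc6 NT these counts were 1940 and 9069 (replicate 1) and 1389 and 7353 (replicate 2). For OGG1 siGl3 NT they were 2325 and 7913, and 2528 and 8378. These counts alone do not place the series list nearer to any of them. Its likeness to each list by shared bases was not tested.

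The end windows remained a mark of these members when width or signal was held. Among regions over 6500 bp wide, 67.5% of those missing from both lay within 5 Mb of an end against 15.6% of the rest, and among those under 3000 bp the shares were 32.7% and 6.35%. Among regions with a maximum under 26 they were 40.7% and 9.35%, and with a maximum of 41 or more 47.3% and 8.87%.

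Regions missing from both lay inside genes more often than the rest, and their lower share at gene ends depended on the window. Gene ends were windows reaching 1 kb to each side of the start and of the end of protein-coding genes, since the annotation table gives no exons or strand. At least 1 bp of such a window was overlapped by 36.8% of the regions missing from both (342 of 930), 41.3% of those of replicate 1 only, 49.5% of those of replicate 2 only and 47% of the rest, and by 45% of all members. The windows take 2.4% of the span. With windows of 5 kb the shares were 50% (missing from both) and 51.8% (rest), and by the region's centre within 1 kb they were 17.8% and 32.9%. The centre lay inside a protein-coding gene for 73.1% of the regions missing from both, 58.4% of those of replicate 2 only and 56.4% of the rest, and such genes take 41.6% of the span. Promoter windows were overlapped by 22.8%, 40.9% and 39.9%. Within steps of signal the order at gene ends turned: among regions with a maximum of 41 or more, 65.6% of those missing from both lay at a gene end against 54.6% of the rest, and with a maximum under 26, 27.2% against 22.2%.

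In the 18 libraries the rule did not use, every member was overlapped at least once, and so was every region of the rest. The 4 OGG1 H2O2 lists alone each cover 18.4% to 27.2% of the genome span and overlapped 95.4% to 98.6% of members. The median was 10 of 18 libraries for regions missing from both, 13 for each of the other classes of members and 16 for the rest. None of the 930 regions missing from both was in all 18 libraries (their highest was 16), while 22 regions of replicate 2 only and 1720 of the rest were. Only 58 regions missing from both were in 5 libraries or fewer. The number of libraries rose with maximum signal across regions (Spearman's rho of 0.31 over 754 regions missing from both and 0.45 over 9673 of the rest), as a description over regions that share the same 18 libraries.

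**Figure D3:**
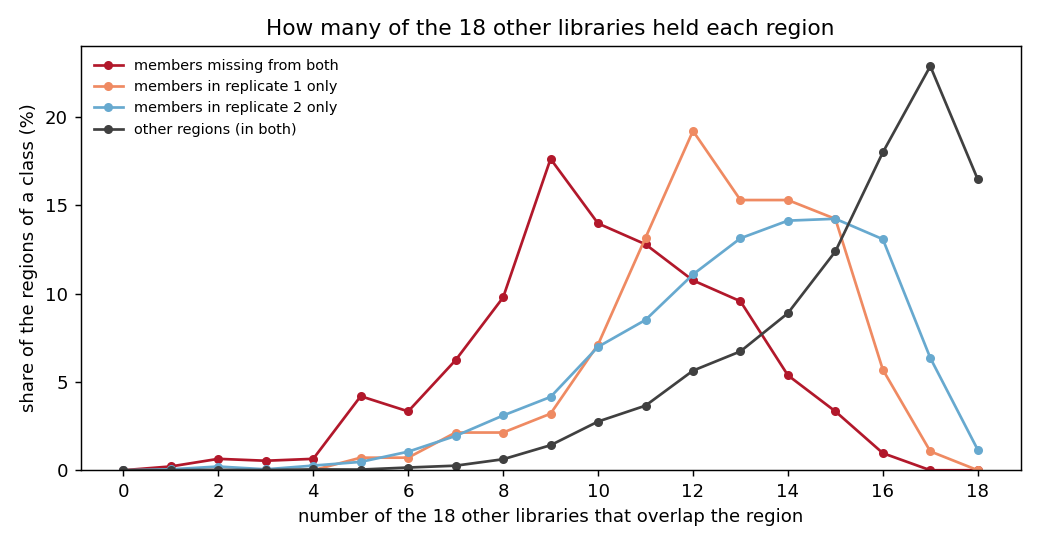
Share of the regions of each class (vertical axis, %) by the number of the 18 other libraries that overlapped them (horizontal axis). The median is 10 for members missing from both, 13 for those in 1 replicate and 16 for the rest.

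The overlap of members fell short of the rest in the group means of all 9 groups the rule did not use. The gap, members minus rest, averaged -17.74 percentage points (exact two-sided sign-flip test over 9 group means, p = 0.00391, the smallest p the design allows; 0.00781 after Benjamini-Hochberg adjustment over the 6 library tests). It was -39.77 ± 11.2 (SD, n = 2) in SMARCA1 siGl3 NT, -38.01 ± 2.74 in SMARCA1 siGl3 H2O2, -29.48 ± 10.7 in Orc6 siGl3 H2O2 and -25.17 ± 0.893 in SMARCA1 siOrc6 NT. In SMARCA1 siOrc6 H2O2 it was -5.61 ± 3.61, and in OGG1 siGl3 H2O2, OGG1 siOrc6 H2O2 and OGG1 siGl3 NT it was -1.36 ± 0.818, -2.99 ± 2.04 and -0.08 ± 1.46. In OGG1 siOrc6 NT it was -17.18 ± 26.5, the spread being that between a replicate 1 value of 1.55 and a replicate 2 library that stood apart, as described below. The gap of OGG1 siGl3 NT replicate 2 was also above 0 (0.96). Where the rule read NT Orc6 replicate 2 alone, the gap was -24.08 and its adjusted p 0.0547 (exact sign-flip test), and without OGG1 siOrc6 NT replicate 2 it was -15.66 (adjusted p = 0.0352, exact sign-flip test).

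**Figure D4:**
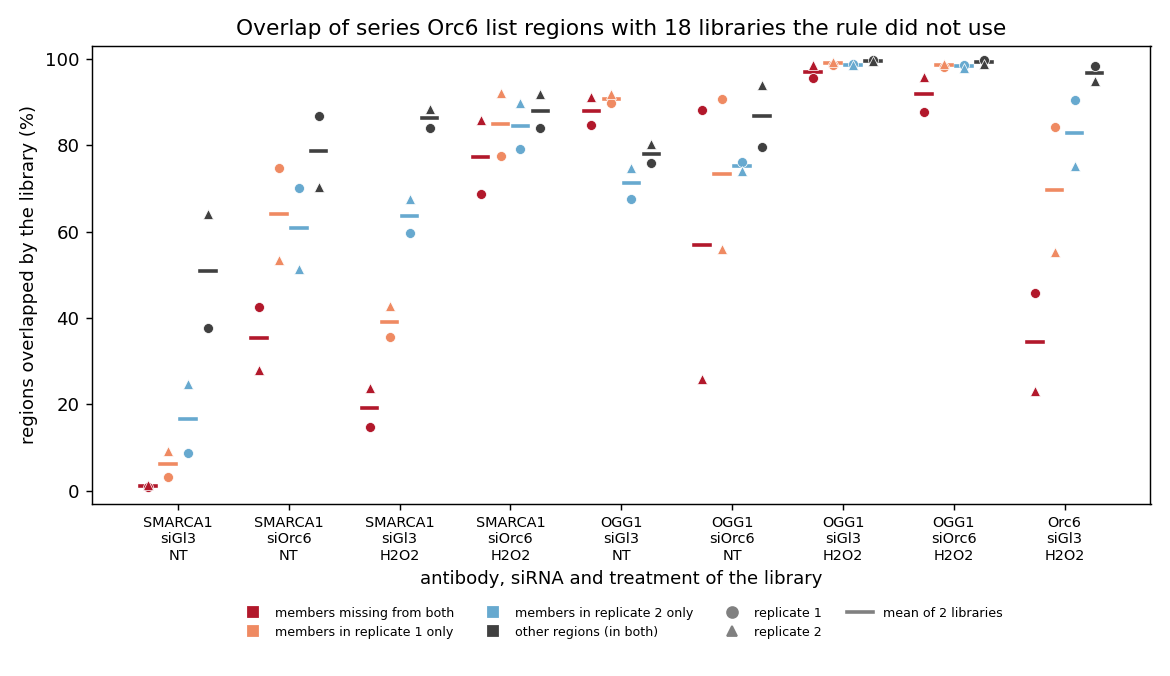
Percent of regions overlapped by each of the 18 libraries the rule did not use (vertical axis), by antibody, siRNA and treatment; circles are replicate 1, triangles replicate 2 and bars the mean of 2 libraries. Red marks for regions missing from both lie at 0.86% and 1.29% in SMARCA1 siGl3 NT but at 84.7% and 91.1% in OGG1 siGl3 NT, above the dark marks of the rest (75.8% and 80.2%).

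The Orc6 libraries of H2O2-treated cells, made with the same antibody but not read by the rule, held 76.5% and 57.8% of the members, against 98.4% and 94.9% of the rest. The regions missing from both were overlapped at 45.7% and 23.2%, those of replicate 1 only at 84.3% and 55.2% and those of replicate 2 only at 90.4% and 75.1%. The same order of classes, missing from both below replicate 1 only below replicate 2 only below the rest, stood in both libraries. Of the bases of the regions missing from both, 23.3% and 10.8% were covered, against 11.2% and 13.2% of the genome span covered by those libraries. So 1 of the 2 Orc6 H2O2 libraries covered these bases at 2.09 times its genome share and the other at 0.816 times.

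OGG1 libraries of NT cells covered the regions missing from both better than the rest, with 1 exception. The siGl3 libraries overlapped 84.7% and 91.1% of the regions missing from both, against 75.8% and 80.2% of the rest, and siOrc6 replicate 1 overlapped 88.2% against 79.5%. In these 3 libraries the regions of replicate 1 only were overlapped still more, at 89.7%, 91.8% and 90.7%. Those of replicate 2 only were overlapped less than the rest, at 67.5%, 74.8% and 76.2%. The siOrc6 replicate 2 library overlapped 25.8% of the regions missing from both against 93.9% of the rest. That library stood apart from the other OGG1 NT lists: its closest list by shared bases (Jaccard index 39.2%) was Orc6 siGl3 H2O2 replicate 2, whereas OGG1 siOrc6 NT replicate 1 was closest to OGG1 siGl3 NT replicate 2 (53.4%). The tests over libraries are given with and without it below. In the other 3 libraries the OGG1 regions at the members missing from both were broad, with median widths of 13741, 21236 and 17734 bp, against 6877, 8512 and 8118 bp for those at the rest. Their median percentile of total signal within their lists was 83, 89.2 and 83.9, against 67.4, 68.3 and 70.1 for those at the rest. By bases, they covered 80.8%, 88.4% and 84% of the regions missing from both, 14.8, 11 and 12 times their genome share, against 13.4, 9.82 and 11.1 times at the rest. Within 5 Mb of a chromosome end the order turned, with 87.6%, 91.2% and 91.9% of the regions missing from both overlapped against 89.7%, 93.2% and 93.1% of the rest, and elsewhere the shares were 82.1%, 90.9% and 84.8% against 74.4%, 78.9% and 78.2%.

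SMARCA1 libraries of siGl3 NT cells were nearly blank at the regions missing from both. They overlapped 8 and 12 of the 930 regions (0.86% and 1.29%), against 37.7% and 64% of the rest, and covered 0.327 and 0.365 times their genome share of these bases. In siGl3 H2O2 cells the libraries overlapped 138 and 220 of these regions (14.8% and 23.7%), against 84.1% and 88.3% of the rest, and covered their bases at 1.01 and 2.27 times the genome share. In siOrc6 cells the overlap was 42.6% and 28% (NT) and 68.6% and 85.8% (H2O2), and the bases were covered at 6.93, 7.78, 12.4 and 10.6 times the genome share. The 4 siOrc6 libraries all stood above the 4 siGl3 libraries, with no overlap between the groups. The names of the 4 SMARCA1 siOrc6 lists say that they were resubmitted and those of the siGl3 lists do not, so siRNA and resubmission cannot be told apart.

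SMARCA1 overlap of the members was higher with siOrc6 than with siGl3, and whether this differed from OGG1 depended on the test. SMARCA1 libraries overlapped 67.9% of members with siOrc6 and 29.6% with siGl3, a difference of 38.27 points, higher in 4 of 4 same-numbered pairs. An exact two-sided permutation that does not use the pairing gave p = 0.0556, the smallest it allows for this antibody alone. OGG1 libraries overlapped 83% and 88.1%, a difference of -5.10 points, higher in 1 of 4 pairs (exact p = 0.389). The difference between the antibodies was tested by permuting siRNA labels within antibody and treatment, which is exact only if siOrc6 changes neither antibody. The siRNA effect was 43.37 points larger for SMARCA1 than for OGG1 (permutation p = 0.0108, adjusted p = 0.0486 over 9 interactions). With the replicate block, which follows the labels' pairing, this did not pass (exact permutation p = 0.0391, adjusted p = 0.176). Without OGG1 siOrc6 NT replicate 2 it was 37.60 points and did not pass either (exact permutation p = 0.0293, adjusted p = 0.132). Over the regions missing from both it was 64.09 points (exact p = 0.00772, adjusted p = 0.0486), with an adjusted p of 0.176 under the block, and 48.49 points without that library (exact p = 0.0154, adjusted p = 0.132). For both sets the call was lost when any of the same 8 of 16 libraries was left out: the 4 OGG1 siGl3 libraries, OGG1 siOrc6 NT replicate 2, OGG1 siOrc6 H2O2 replicate 1 and replicate 1 of SMARCA1 siGl3 NT and H2O2. In the rest the same difference was 10.50 points (exact p = 0.398). SMARCA1 at the rest itself went from 68.5% to 83.3%, higher in 3 of 4 pairs.

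Over both antibodies together the siRNA contrast of the members did not pass. The overlap was 16.59 points higher with siOrc6 (exact two-sided permutation over 16 libraries in 4 strata, p = 0.0525, adjusted p = 0.0787), above 0 in the 2 SMARCA1 strata and below 0 in the 2 OGG1 strata. Without OGG1 siOrc6 NT replicate 2 it was 19.47 points (adjusted p = 0.0352, exact test). The gap to the rest changed by 7.07 points with siOrc6 (exact p = 0.347), and by 11.75 points without that library (adjusted p = 0.0352, exact test).

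H2O2 went with more overlap of the members in both antibodies. Over 16 libraries the overlap was 28.29 points higher with H2O2 than without, above 0 in 4 of 4 strata. The exact two-sided permutation p was 0.00154 (adjusted p = 0.00781), the smallest the design allows without the pairing. With the replicate block the exact permutation p was 0.00781 (adjusted p = 0.0156). Without OGG1 siOrc6 NT replicate 2 the overlap was 25.41 points higher with H2O2. SMARCA1 went from 32.3% to 65.3% and OGG1 from 73.7% to 97.3% of members, each higher in 4 of 4 pairs. The exact permutation p, without the pairing, was 0.0556 for each, the smallest for 1 antibody. In the H2O2 libraries OGG1 reached 97.8%, 98.6%, 95.4% and 97.4% of the members, and these lists cover 27.2%, 25.6%, 24.6% and 18.4% of the genome span. The rise moved with list length: with every list held to the 6992 regions of highest total signal, the contrast was 0.08 points (exact p = 0.98), and as bases covered over genome share it fell by 0.59 on the log2 scale (exact p = 0.108). The gap to the rest changed by 8.56 points with H2O2 (exact p = 0.103, adjusted p = 0.124), by 13.24 points without OGG1 siOrc6 NT replicate 1 (adjusted p = 0.0394, exact test) and by 3.88 points without replicate 2 of that group (adjusted p = 0.253, exact test).

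OGG1 libraries overlapped more members than SMARCA1 libraries, by 36.75 points over 4 strata of siRNA and treatment (exact two-sided permutation p = 0.00309, adjusted p = 0.00781), above 0 in 4 of 4, and by 39.64 points without OGG1 siOrc6 NT replicate 2. OGG1 lists also cover more of the genome. With every list held to the 6992 regions of highest total signal, the contrast was 24.32 points and passed (exact permutation p = 0.0139, adjusted p = 0.0417). As bases covered over genome share it was -0.46 on the log2 scale (exact permutation p = 0.284), so by that measure the order of the antibodies turned and did not pass. The answer thus depended on how list size was allowed for.

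Single regions with an all-or-none pattern were read over the whole series list, where every one of 4 libraries under one condition overlapped the region and 0 of 4 under the other did. For SMARCA1 with siOrc6 against siGl3, this was so in 234 members (7.51%) in the direction of siOrc6, where 2.84% of all 13557 list regions and 1.45% of the rest had it. By class these were 92 of the regions missing from both (9.89%), 43 of those of replicate 1 only (15.3%) and 99 of those of replicate 2 only (5.2%). In the other direction 8 members (0.257%) had the pattern, against a background of 0.679%, all 8 of replicate 2 only. For such a region Fisher's exact test gives p = 0.0286, and none passed after adjustment over the list regions that vary (adjusted p = 0.677). With at least 50% of the region required to be covered, the count towards siOrc6 was 468 members. Without SMARCA1 siOrc6 NT replicate 2 it was 381, and without SMARCA1 siGl3 H2O2 replicate 2 it was 472. Where the rule read NT Orc6 replicate 2 alone it was 135 of 1211 members, against 234 of 3114 in the main reading. In that reading only the membership changes, so the share over the whole list stays 2.84%. Its members are the regions missing from both (9.89% with the pattern) and those of replicate 1 only (15.3%). Under the other settings the share over the whole list was not taken, so those counts alone show no excess or lack in the members.

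The named regions towards siOrc6 lay near chromosome ends. The highest by total signal was chr16:88455951-88516285, 60335 bp wide, inside ZFPM1, a cofactor of GATA factors, held in replicate 1 only. It was followed by a piece in COL9A3, a chain of collagen IX in cartilage (chr20:62834064-62837846), and a region over GPS1, RFNG and DUS1L (chr17:82045063-82066881), where GPS1 is a subunit of the COP9 signalosome and RFNG modifies Notch receptors. The next was at HDAC10, MAPK11 and MAPK12, a deacetylase and a pair of p38 kinases (chr22:50249756-50266133), and the last was the region of LHX3 and QSOX2 (chr9:136192634-136210824). All 5 were overlapped by 4 of 4 SMARCA1 siOrc6 libraries, 0 of 4 SMARCA1 siGl3 libraries and 7 or 8 of 8 OGG1 libraries. The 5 named towards siGl3, such as chr5:130547607-130552600 and chr2:213236495-213240302, touched no protein-coding gene or gene end.

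With H2O2, 83 members gained the pattern for OGG1 (2.67%, background 1.14%) and 85 for SMARCA1 (2.73%, background 1.7%). Of these, 68 (3.57% of that class) and 70 (3.68%) were regions of replicate 2 only. Regions missing from both had the pattern in 1.18% (OGG1) and 0.968% (SMARCA1), near or below the background. Those of replicate 1 only had it in 1.42% and 2.14%, and the rest in 0.68% and 1.39%. Regions named for OGG1 lay in SCMH1, a Polycomb protein gene (chr1:41036948-41039784), or outside genes, and those named for SMARCA1 lay outside genes (2 of 5, such as chr2:10035355-10041238) or in SFXN5, a mitochondrial carrier (chr2:72989742-73002485), SDK2, a synaptic adhesion molecule (chr17:73582028-73595231), and PALD1 (chr10:70529040-70540358). In the other direction the pattern stood in 1 member for OGG1, in TUBD1, the delta tubulin gene (chr17:59878905-59879380; background 0.00738%), and in 2 for SMARCA1, both in NTM, a neural adhesion molecule (chr11:132052631-132059809 and chr11:132069595-132069679; background 0.0664%). For OGG1 with siOrc6 no member was gained (background 0%) and 3 were lost (background 0.0221%), in MUC5AC, GRID1, a glutamate receptor gene (chr10:86330701-86332740), and SKI, each missing from both. No region passed the adjustment in any of these comparisons (adjusted p from 0.458 to 1, Fisher's exact test). The H2O2 lists were mostly longer than the NT lists, and with every list held to 6992 regions the counts towards H2O2 were 18 members for OGG1 and 1 for SMARCA1. The OGG1 count towards H2O2 was 285 without OGG1 siOrc6 NT replicate 2, 126 without OGG1 siOrc6 NT replicate 1 and 15 without Orc6 NT replicate 1. The SMARCA1 count was 197 without SMARCA1 siOrc6 NT replicate 1, 178 and 142 without SMARCA1 siGl3 H2O2 replicate 1 or 2, and 15 without Orc6 NT replicate 1. Without Orc6 NT replicate 1 there were 1211 members in place of 3114. Leaving out that library changes only the membership, so the shares over the whole list stay 1.14% (OGG1) and 1.7% (SMARCA1). The members are then the regions missing from both and those of replicate 1 only, whose shares are given above. Under the other settings the share over the whole list was not taken.

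Among the regions missing from both, the 10 of highest total signal were held by 6 to 8 of the 8 OGG1 libraries and by 1 to 6 of the 8 SMARCA1 libraries. Besides MEGF6 and TP73 they lay in MAD1L1, a spindle checkpoint gene (chr7:1972806-1974435), MYRF, the myelin regulatory factor (chr11:61777675-61782349), COL9A3, and PLXNA1, a semaphorin receptor (chr3:126983521-127025296), and 3 touched no protein-coding gene. The MEGF6 region was in 7 OGG1 libraries, 3 SMARCA1 siOrc6 libraries, 0 SMARCA1 siGl3 libraries and 1 Orc6 H2O2 library. All but the MEGF6 region were pieces of a cut call.

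The members found most widely were of another kind. The 10 named of the 22 regions present in all 18 other libraries were missing from replicate 1 alone. They included the gene ends of H2AZ2, a histone H2A.Z gene (chr7:44847009-44855798, maximum signal 181), SLC2A1, the glucose transporter GLUT1 (chr1:42954861-42965415), and ELOVL6, a fatty acid elongase (chr4:110195669-110199521). Their gaps to the nearest replicate 1 region were 16735, 25664 and 26464 bp. The other 7 touched no protein-coding gene end or body, among them the region of highest total signal, chr22:27498554-27514076.

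Of the genes for origin licensing and firing, 21 of 30 had a region of the series list at a gene end, and 6 of those had a member. Across all protein-coding genes, 1792 of 7735 with a list region had a member (23.2%), against 28.6% for this list. The ORC4 region (chr2:148019732-148022191), at a subunit of the origin recognition complex itself, was in 8 of the 18 other libraries. The regions at MCM2 (chr3:127596262-127601021) and MCM6 (chr2:135874654-135878519), helicase subunits, were in 17 and 11, that at GMNN, the inhibitor of CDT1 (chr6:24774146-24776830), in 15, and that at GINS3 (chr16:58391335-58395812) in 13. These 5 were held by NT Orc6 replicate 2 only. The region at CDC45, the helicase cofactor (chr22:19516200-19523909), was missing from both and in 15 others, among them all 8 OGG1 libraries, both Orc6 H2O2 libraries and all 4 SMARCA1 siOrc6 libraries, and 1 of the 4 SMARCA1 siGl3 libraries.

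Among 12 genes at well-studied origins, 7 had a list region and 1 of these (14.3%), LMNB2, had a member, against 23.2% over all protein-coding genes with a list region. Its region was missing from both, as were those of 442 of the 7735 genes (5.71%). The interval between LMNB2 (chr19:2428166-2456959) and TIMM13 (chr19:2425625-2427586) holds one of the best mapped human origins. The region over it, chr19:2425449-2429991, had a maximum signal of 73 and was missing from both NT Orc6 libraries. It was called in 13 of the other 18: in 7 of 8 OGG1 libraries (not in siOrc6 NT replicate 2), in all 4 SMARCA1 siOrc6 libraries, in 1 of 4 SMARCA1 siGl3 libraries and in 1 of 2 Orc6 H2O2 libraries. TIMM13 was named after its position was seen. Its absence from the NT lists is an absence of a called region, since the lists give no signal outside their regions.

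Of the ISWI subunit genes, 9 of 16 had a list region and 1 had a member, POLE3, a histone-fold subunit shared with DNA polymerase epsilon (chr9:113409564-113412170), found in 15 other libraries. Of the base excision repair genes, 18 of 23 had a list region and 2 had a member, OGG1 itself (chr3:9749189-9751397, in 15 other libraries) and UNG, the uracil glycosylase (chr12:109096981-109099018, in 14). All 3 were held by replicate 2 only. The share with a member was 11.1% in both lists, against 23.2% over all protein-coding genes with a list region.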

How the data were processed

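Regions called in CUT&RUN libraries of U2OS cells were used: 20 lists of 1 library each and 1 Orc6 list deposited at series level. Each deposited list gives, per region, a summed and a peak signal made by the authors, in whole numbers whose scaling no source used here states, so depth is unknown and signal was read only within a list. Per the submitters' processing notes the build was hg38 and the tools included SEACR 1.1, Bowtie2, bedtools, SAMtools, deepTools, DESeq2 and DiffBind, with no roles given. Groups came from the sample titles. The members and lists were chosen with earlier results of these data known.

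Of 13608 series regions, 51 outside chromosomes 1 to 22 and X were left out (with them, 3128 members). Overlap meant at least 1 bp. Shares of regions overlapped were compared by exact two-sided permutation within strata of the other factors, or by sign-flips of group means, with Benjamini-Hochberg adjustment over 6 tests, and regions by Fisher's exact test over the whole list. Batch numbers in the labels equal the replicate numbers, which therefore pair the samples, and the contrasts and, after seeing the data, the interactions were repeated with that block. No pair of lists was identical. Gene ends came from RefSeq GRCh38.p14 (19974 protein-coding genes); end windows took the farthest called base as the chromosome end. Regions and genes were named by a fixed rule: highest total signal among members missing from both (10), presence in most other libraries (10), nearness to the overlap threshold (5 on each side), all-or-none patterns (5 per direction), and list members at gene ends. Alternatives covered the overlap, the rule, list length, bases covered, width, chromosome X, the block and each library left out. Code was tested on simulated data. Python 3.11.15, numpy 2.4.6, pandas 2.3.3 and scipy 1.17.1 were used.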

Additional observations from a re-analysis of the deposited data

Results flagged for a closer look

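The effect of the Orc6 siRNA differed between the antibodies in a permutation test of the difference, but not with the replicate block or without some of the libraries. That test permutes siRNA labels within antibody and treatment, so it is exact only if siOrc6 changes neither antibody. The share of members overlapped changed by 43.37 points more for SMARCA1 than for OGG1 with siOrc6 against siGl3 (exact permutation p = 0.0108, adjusted p = 0.0486 over 9 interactions). With the block the adjusted p was 0.176, and with each of 16 libraries left out in turn it ranged from 0.0139 to 0.132 and passed in 8 of 16 (exact permutation tests). SMARCA1 was higher with siOrc6 in 4 of 4 pairs and OGG1 in 1 of 4.

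For the regions missing from both NT Orc6 libraries the same difference was 64.09 points (exact permutation p = 0.00772, adjusted p = 0.0486; 0.176 with the block, and 0.0139 to 0.132 with 1 library left out, passing in 8 of 16). SMARCA1 went from 10.2% to 56.2% of these regions and OGG1 from 92.4% to 74.4%. Without OGG1 siOrc6 NT replicate 2 the OGG1 contrast was -2.42 points (exact p = 0.556). The SMARCA1 siOrc6 lists are all named as resubmitted, which cannot be told apart from the siRNA.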

How the results depend on the processing

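The labels' batch numbers pair the samples, and with the replicate block the contrasts kept their values (28.29, 16.59, 36.75, 8.56 and 7.07 points) and no call changed (exact tests, adjusted p from 0.0156 to 0.43), while the difference of the siRNA effect between the antibodies kept its values (43.37 points over members, 64.09 over those missing from both) and lost its call (adjusted p = 0.176 for each). Pieces of 1 call joined, or the 5 Mb at chromosome ends left out, both chosen after seeing the data, changed none of the 6 library calls. The change of the gap with siOrc6 turned to -0.35 points with 50% of a region covered and to -1.23 with all lists at 6992 regions. At that length the H2O2 contrast was 0.08 points, the siOrc6 contrast 5.03 points and the antibody contrast 24.32 points. As bases over genome share these contrasts were -0.59, 0.58 and -0.46 (log2). The causes were not tested.

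With 1 library left out, the H2O2 contrast ranged from 25.04 to 31.17 points, siOrc6 from 13.70 to 19.47, antibody from 33.87 to 48.29, the gap from -24.08 to -15.66, its change with H2O2 from 3.67 to 13.24 and with siOrc6 from 2.39 to 11.75, the number of members from 1211 to 2833, and the siRNA difference between antibodies from 37.60 to 49.13 (members) and from 48.49 to 79.68 (missing from both). The number missing from both is 930. All-or-none members ranged from 15 to 285 (OGG1, towards H2O2), 1 to 2 (towards NT), 15 to 197 (SMARCA1, towards H2O2), 1 to 5 (towards NT), 3 to 12 (OGG1, towards siGl3), 0 (OGG1, towards siOrc6), 135 to 472 (SMARCA1, towards siOrc6) and 0 to 16 (towards siGl3). With 50% covered, SMARCA1 counts were 11 towards H2O2, 9 towards NT, 468 towards siOrc6 and 2 towards siGl3. With lists of equal length they were 18 and 0 (OGG1, H2O2 and NT), 1 and 13 (SMARCA1, H2O2 and NT), 2 and 7 (OGG1, siOrc6 and siGl3) and 228 and 3 (SMARCA1, siOrc6 and siGl3). These are counts of members. Leaving out an NT Orc6 library does not change the share over the whole list, and under the other settings that share was not taken. Depth is unknown, so an absent region is only an absence of a call.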

Other observations

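The authors' deposited tables of SMARCA1 windows, all of 1 width and named up or ns, give positions and no values, and do not say which samples were compared. In the authors' deposited table named up for NT (7045 windows), a window touched 29.2% of the members, 14.2% of those missing from both and 44.8% of the rest. In the authors' deposited table named up for H2O2 (12359 windows) the shares were 43.2%, 38.3% and 44.8%. The authors' deposited tables named ns touched 9.83%, 5.16% and 31.5% for NT (5317 windows), and 42.8%, 37% and 61.1% for H2O2 (31524 windows).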
